A study of Homo sapiens with 18 samples.

Results

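Anti-ARID1A CUT&Tag peaks were compared between A549 cells with ARID1A knocked down (siARID1A) and wild-type A549 cells (WT). A549 is a human lung adenocarcinoma cell line, and CUT&Tag directs a transposase to an antibody on chromatin, so that sequenced fragments pile up where the antibody's target lies. Of the 18 samples, 4 entered the comparison: 2 siARID1A samples and 2 WT samples, each profiled with the ARID1A antibody. Another 8 samples with peak lists (anti-ARID1A in YTHDF1-knockout cells, and anti-YTHDF1 in siARID1A, YTHDF1-knockout and WT cells) served only as lists that took no part in choosing the regions, and the 6 IgG samples were not used. The labels name neither the reagent, dose nor duration of the knockdown. They do not say whether WT cells received a control treatment, so loss of ARID1A and the knockdown treatment itself cannot be told apart. Nor do they say whether replicates came from separate cultures. The p-values below therefore reflect only how these samples vary, and that variation may be technical.

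The members were regions, found by merging overlapping peaks of the 4 lists on chromosomes 1 to 22 and X, and a list held a region when at least 1 bp of a peak lay in it. This gave 132266 regions, against 194565 when all 12 lists were merged. A region was called kept when all 4 lists held it, WT-only when both WT lists and neither siARID1A list held it, siARID1A-only in the opposite case, and mixed for every other pattern. A kept region was called narrowed or widened when the length covered by peaks within it differed between the groups in limma's moderated test. A region's place was a gene start when a protein-coding start lay within 1 kb. For the 4162 genes without a listed start, either annotated end served as the start, in places, distances and gene windows. Otherwise the place was a gene body when the region overlapped a protein-coding gene, and intergenic when it did not. Each peak carries the authors' total signal, and its percentile is its rank in its own list, with 100 for the strongest peak; ranks from lists of different length describe each list and show no change between them.

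ARID1A is the large DNA-binding subunit that defines the canonical BAF form of the SWI/SNF complex, which uses ATP to slide or evict nucleosomes. The complex is known at promoters and, above all, at enhancers, where it keeps sites open to transcription factors such as AP-1, and ARID1A is often lost by mutation in carcinomas. YTHDF1, the other protein profiled in these cells, binds N6-methyladenosine marks on RNA.

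The promoters of 8 genes show the kinds of sequence that fell into each class. They were taken from RefSeq on build GRCh38.p14 and run 5′ to 3′ from 250 bases before to 50 bases after the gene's start. Capitals mark matches on either strand to 6 short motifs. The box bound by Sp-family factors was searched as GGGCGG and is called the GC box. The CCAAT box, bound by the NF-Y trimer, was searched by the letters of its name. The TATA box, the core element bound by TBP, was searched as TATAAA. The AP-1 site, bound by FOS and JUN dimers, was searched as TGANTCA, where N is any base. The cAMP response element, bound by CREB and ATF factors, was searched as TGACGTCA, and the ETS-family site as CCGGAAG. None of the motifs contains another. Of the 15812 protein-coding promoters in that set, 58.5% hold a GC box, 36.3% a CCAAT box, 9.64% a TATA box, 5.76% an AP-1 site, 2.59% a cAMP response element and 14.2% an ETS site. A match describes the letters and is no evidence of binding. The first 3 promoters were overlapped by peaks of both WT lists and neither siARID1A list. They belong to FIBCD1, an acetyl-group-binding membrane receptor (chr9:130939198-130939497, minus strand), PNPLA5, a lipase of the patatin family (chr22:43891964-43892263, minus strand), and C10orf90 (chr10:126521392-126521691, minus strand).
FIBCD1: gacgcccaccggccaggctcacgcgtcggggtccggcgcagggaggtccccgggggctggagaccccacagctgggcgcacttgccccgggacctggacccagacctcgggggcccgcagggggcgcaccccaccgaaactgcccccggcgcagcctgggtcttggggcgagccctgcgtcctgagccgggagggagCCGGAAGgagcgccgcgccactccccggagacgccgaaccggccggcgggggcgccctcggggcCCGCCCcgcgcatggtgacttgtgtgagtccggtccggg
PNPLA5: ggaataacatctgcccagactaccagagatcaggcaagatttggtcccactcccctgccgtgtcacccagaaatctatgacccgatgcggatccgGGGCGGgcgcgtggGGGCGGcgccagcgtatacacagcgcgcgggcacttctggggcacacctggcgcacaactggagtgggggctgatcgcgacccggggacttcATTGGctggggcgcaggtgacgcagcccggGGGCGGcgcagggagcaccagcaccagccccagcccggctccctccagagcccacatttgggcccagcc
C10orf90: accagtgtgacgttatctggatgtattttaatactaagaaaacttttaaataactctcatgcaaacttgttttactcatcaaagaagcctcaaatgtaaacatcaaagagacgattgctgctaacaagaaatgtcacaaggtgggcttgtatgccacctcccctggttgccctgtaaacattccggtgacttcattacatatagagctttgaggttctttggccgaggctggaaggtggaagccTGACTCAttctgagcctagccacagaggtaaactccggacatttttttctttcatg
The next 2 were overlapped by peaks of both siARID1A lists and neither WT list: ZNF800, a zinc finger protein (chr7:127392659-127392958, minus strand), and ITGA4, the integrin alpha 4 chain (chr2:181457136-181457435, plus strand), whose promoter holds no match.
ZNF800: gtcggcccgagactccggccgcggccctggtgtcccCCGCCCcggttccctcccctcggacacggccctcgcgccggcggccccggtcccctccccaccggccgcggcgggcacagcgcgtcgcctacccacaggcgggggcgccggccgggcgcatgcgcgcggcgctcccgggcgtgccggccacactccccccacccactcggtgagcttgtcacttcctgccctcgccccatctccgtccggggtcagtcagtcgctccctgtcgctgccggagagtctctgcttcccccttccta
ITGA4: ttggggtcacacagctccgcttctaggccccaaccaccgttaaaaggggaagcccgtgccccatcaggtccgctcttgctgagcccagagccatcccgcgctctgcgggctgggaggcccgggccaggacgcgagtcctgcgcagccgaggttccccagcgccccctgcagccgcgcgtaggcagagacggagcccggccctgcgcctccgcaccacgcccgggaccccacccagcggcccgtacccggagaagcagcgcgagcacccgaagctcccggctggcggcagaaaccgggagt
The last 3 were overlapped by peaks of all 4 lists: ZFP36, a protein that destabilises AU-rich messenger RNAs (chr19:39406597-39406896, plus strand), CIC, a transcriptional repressor (chr19:42268280-42268579, plus strand), and ARID1A itself (chr1:26695765-26696064, plus strand).
ZFP36: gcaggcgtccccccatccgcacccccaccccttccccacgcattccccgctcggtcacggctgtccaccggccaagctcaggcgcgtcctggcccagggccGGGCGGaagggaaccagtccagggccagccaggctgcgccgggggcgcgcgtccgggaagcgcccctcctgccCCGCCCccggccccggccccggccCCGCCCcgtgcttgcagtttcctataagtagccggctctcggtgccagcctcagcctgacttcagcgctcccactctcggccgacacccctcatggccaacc
CIC: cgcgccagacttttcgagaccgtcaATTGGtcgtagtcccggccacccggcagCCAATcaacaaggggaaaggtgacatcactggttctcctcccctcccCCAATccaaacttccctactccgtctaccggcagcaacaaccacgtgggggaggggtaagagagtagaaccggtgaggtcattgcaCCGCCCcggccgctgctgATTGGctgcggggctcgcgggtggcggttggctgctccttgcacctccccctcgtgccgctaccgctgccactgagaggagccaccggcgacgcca
ARID1A: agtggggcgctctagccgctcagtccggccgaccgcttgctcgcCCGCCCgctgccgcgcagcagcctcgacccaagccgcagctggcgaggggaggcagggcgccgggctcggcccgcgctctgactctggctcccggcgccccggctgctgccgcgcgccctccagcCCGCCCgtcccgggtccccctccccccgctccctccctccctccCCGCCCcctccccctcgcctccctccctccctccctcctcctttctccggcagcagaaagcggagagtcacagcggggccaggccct

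Base composition differed among the promoter classes. The 7580 promoters held by all 4 lists had a median GC content of 66.0% and a median observed-over-expected CpG ratio of 0.848, and 75.3% of them held a GC box. The 43 siARID1A-only promoters had a median GC content of 67.0% and a CpG ratio of 0.831, and 62.8% held a GC box. Among the 690 WT-only promoters these values were 62.0%, 0.678 and 55.7%. Over all 15812 promoters they were 62.7%, 0.763 and 58.5%, so WT-only promoters were near the whole set in GC content and GC box. The 3968 promoters that no list held had 49.7% GC, a CpG ratio of 0.320 and a GC box in 27.9%. An AP-1 site was present in 4.65% of siARID1A-only, 7.10% of WT-only and 4.25% of kept promoters, each within a few points of the 5.76% over all promoters. An ETS site was present in 9.30% of siARID1A-only, 11.4% of WT-only and 19.6% of kept promoters, against 14.2% over all promoters. The siARID1A-only shares rest on 43 promoters.

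Fewer and much narrower peaks were listed in siARID1A cells. The siARID1A lists held 71271 and 79193 peaks, against 92343 and 100729 in the WT lists. Median peak width was 1104 and 1243 bp in siARID1A cells, against 1701 and 1754 bp in WT cells. The difference was larger in the wide tail: 10% of peaks were wider than 2316 and 2725 bp in the siARID1A lists, against 4405 and 4745 bp in the WT lists. Peaks of at least 10 kb numbered 113 and 281 in the siARID1A lists and 1829 and 2553 in the WT lists, a ratio of 0.0899. The widest peak measured 28270 and 34463 bp in the siARID1A lists, against 83050 and 131619 bp in the WT lists. Covered length was 99.0 and 128 Mb in siARID1A cells, against 228 and 266 Mb in WT cells. None of these measures overlapped between the groups, and each gave p = 0.333 in a two-sided exact permutation test, the smallest p that 2 against 2 can give.

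Signal on chromosome MT, the mitochondrial genome, differed between the siARID1A and WT libraries. Each listed signal was a whole multiple of a step that differed among libraries, and the step was 1.31 and 1.93 signal units in the siARID1A lists and 118 and 33.2 in the WT lists. The authors' signal values were therefore on different scales, and signal was counted here in units of 1000000 steps. What 1 step stands for is not stated in those sources that were used. On chromosomes 1 to 22 and X the siARID1A lists held 299 and 415 such units, against 1015 and 1233 in the WT lists, a ratio of 0.318. On chromosome MT they held 308 and 354 units, against 252 and 282 in the WT lists, a ratio of 1.24. Of all listed signal, chromosome MT took 49.5% and 44.9% in siARID1A cells and 19.3% and 18.1% in WT cells. The median peak summit was 5 steps in each siARID1A list and 7 in each WT list, while the lowest summit was 2 steps in all 4. Library depth is not in the lists, so from peak number and width a lower yield of nuclear fragments and narrower binding cannot be told apart. The part of the mitochondrial share in the results below was not tested.

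The anti-YTHDF1 lists of the same cell groups did not show this contrast. Covered length was 79.6 ± 2.94 Mb in siARID1A cells and 69.5 ± 28.4 Mb in WT cells with anti-YTHDF1 (SD, n = 2 each), a ratio of 1.15 (exact permutation p = 1). The mitochondrial share there was 31.7 ± 0.400% in siARID1A cells and 33.2 ± 7.62% in WT cells (SD, n = 2 each). The plot of peak number, covered length, width and mitochondrial share by library shows both antibodies.

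**Figure D1:**
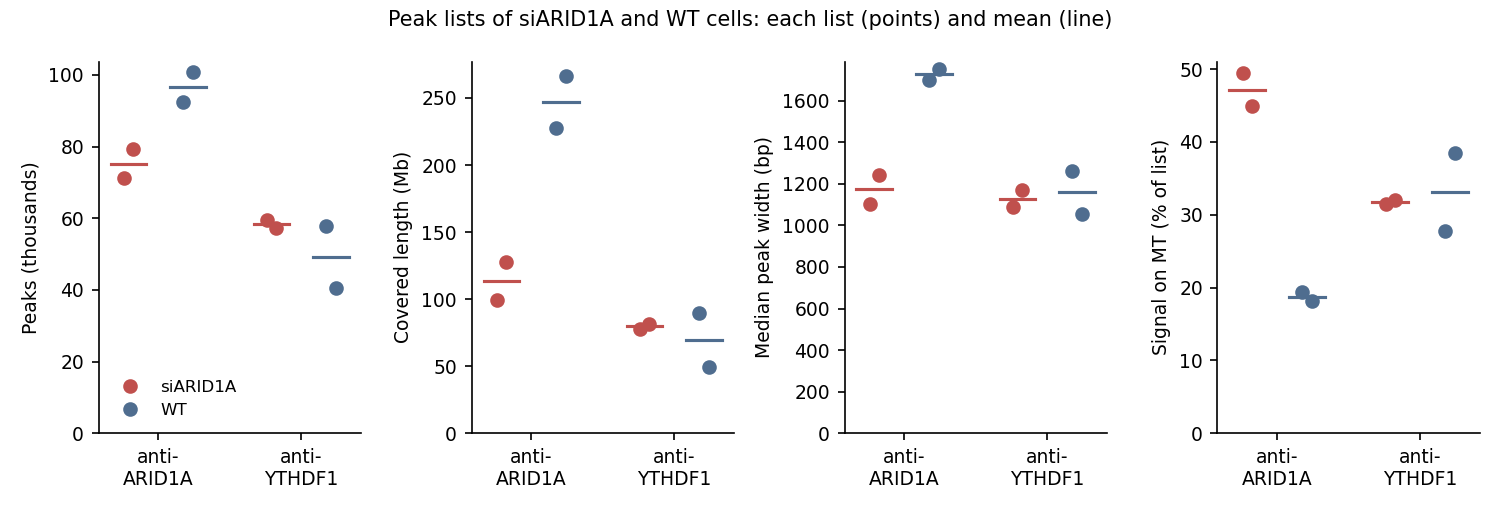
Peak number, covered length, median peak width and share of listed signal on chromosome MT for each peak list (points) with group means (lines), siARID1A in red and WT in blue, for anti-ARID1A and anti-YTHDF1. With anti-ARID1A both siARID1A lists lie below both WT lists in the first 3 panels and above them in the last (49.5% and 44.9%, against 19.3% and 18.1%); with anti-YTHDF1 the WT lists lie on either side of the siARID1A lists in covered length.

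The classes differed in width, strength and place. The 25800 kept regions, 19.5% of all, had a median width of 4435 bp, and 40.9% of them lay at a gene start, against 12.6% of all regions. The 897 siARID1A-only regions (0.678% of all) had a median width of 1438 bp with 9.03% at a gene start, and the 15950 WT-only regions (12.1% of all) had a median width of 2104 bp with 5.62% at a gene start. The median distance to the nearest protein-coding start was 5434 bp for kept, 24034 bp for siARID1A-only and 25956 bp for WT-only regions. Kept regions had median percentiles of 71.9 and 75.5 in the siARID1A lists and 81.7 and 84.0 in the WT lists. The siARID1A-only regions sat low in the siARID1A lists, at median percentiles of 31.8 and 30.2. The WT-only regions lay at 39.3 and 43.6 in the WT lists. The mixed regions had a median width of 1450 bp, 5.73% at a gene start and a median distance of 26142 bp. Their median percentiles were 27.5 and 29.3 in the siARID1A lists and 31.8 and 33.1 in the WT lists. Being shorter, lower in rank and farther from gene starts than kept regions was therefore common to all other classes. Kept regions join peaks of every list compared, which can add to their width and their chance of reaching a gene start. How much it added was not tested.

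Most regions were mixed, at 89619 or 67.8%, because replicates shared only part of their peaks. Of these, 20910 were held by 1 siARID1A list alone and 42674 by 1 WT list alone. Leaving out one list moved the class counts, since a class then needs only 1 list of that group. WT-only regions numbered 21397 and 25260 without siARID1A replicate 1 and 2, and 45429 and 37723 without WT replicate 1 and 2. The siARID1A-only regions numbered 12662 and 10385 without siARID1A replicate 1 and 2, and 1695 and 2477 without WT replicate 1 and 2.

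Regions that both siARID1A lists held were mostly held by the WT lists too. Single siARID1A lists held more regions of their own. Of the 47184 and 55067 regions in siARID1A replicate 1 and 2, 9306 and 11604 were in no other list. Of the 28609 regions held by both siARID1A lists, 90.2% were held by both WT lists, 6.68% by 1 and 3.14% by neither. Of the 55834 regions held by both WT lists, 46.2% were held by both siARID1A lists, 25.2% by 1 and 28.6% by neither. The lists differ in length, so the 2 shares are not a like comparison.

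Whether a WT region was held in siARID1A cells followed its strength in WT cells. In the lowest 10 percentiles of mean WT signal, 72.8% of 662 regions were WT-only. The share was 45.4% between percentiles 40 and 50, 10.8% between 70 and 80, and 0.154%, or 12 of 7774 regions, above percentile 90. A decline with strength was also seen in cells that were not knocked down. In the same bins, 41.1%, 13.4%, 1.05% and 0% of the regions were in neither YTHDF1-knockout anti-ARID1A list. The WT-only share was lower at gene starts than elsewhere in each bin; these shares are counts over regions and were not tested. Between percentiles 50 and 60, 15.5% of 1015 regions at gene starts were WT-only, against 38.4% of 2980 in gene bodies and 40.1% of 2601 between genes. Over all percentiles these shares were 6.75%, 34.7% and 36.1%. A similar order was seen in cells that were not knocked down: in the same percentile bin, both YTHDF1-knockout anti-ARID1A lists held 83.9% of regions at gene starts, 67.9% in gene bodies and 67.0% between genes.

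**Figure D2:**
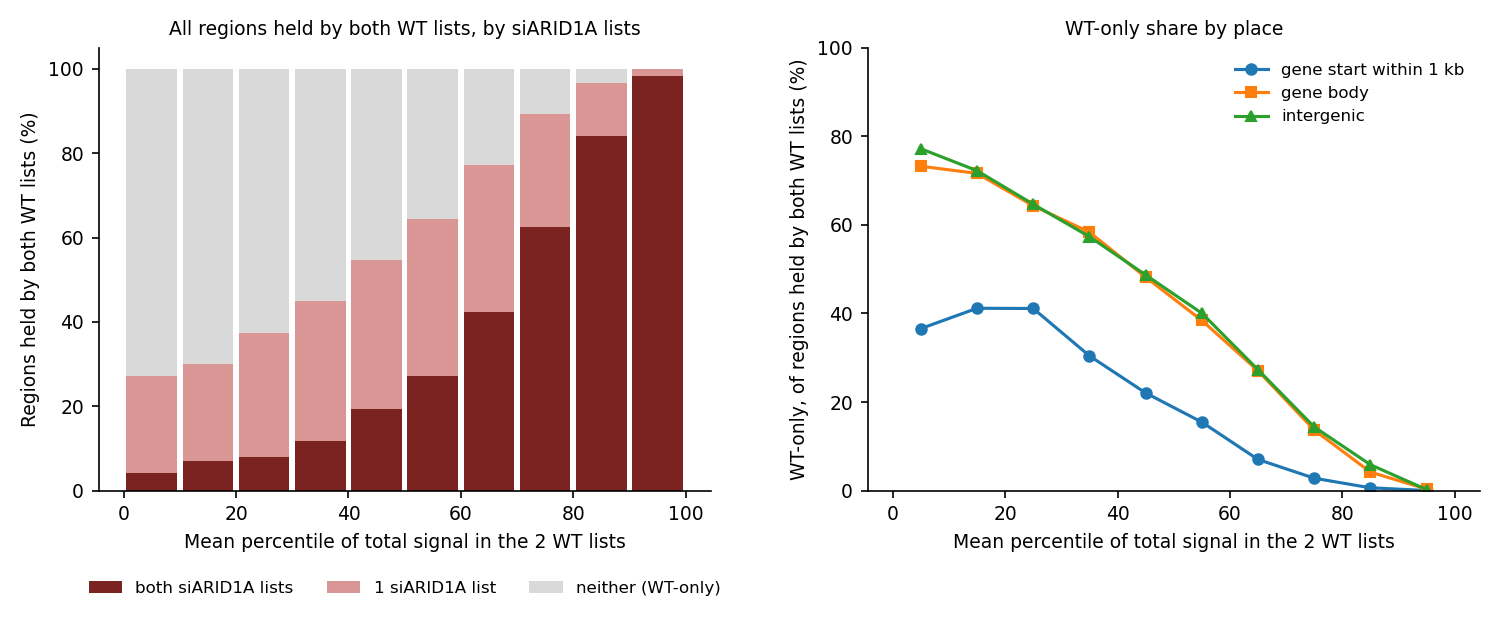
Left, regions held by both WT lists in bins of 10 percentiles of mean WT total signal (x axis), divided by how many siARID1A lists held them (y axis, percent). Right, the WT-only share in the same bins for regions within 1 kb of a gene start, in gene bodies and between genes. The WT-only share declines from 72.8% in the lowest bin to 0.154% in the highest, and the line for gene starts lies below the other two up to percentile 90.

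The composition of the listed signal shifted toward regions at gene starts. Each peak took the place of its merged region, so a peak that did not reach the start itself still counted there. How much this added to the shares was not tested. Regions at gene starts took 50.7% and 49.7% of the listed nuclear signal in siARID1A cells, against 43.4% and 41.9% in WT cells. Regions in gene bodies took 25.9 ± 0.652% of it in siARID1A cells and 30.4 ± 0.728% in WT cells, and intergenic regions 23.9 ± 0.0623% in siARID1A cells and 26.9 ± 0.329% in WT cells (SD, n = 2 each). By length, peaks in regions at gene starts made up 43.1 ± 1.88% of the siARID1A covered length and 32.9 ± 1.78% of the WT covered length (SD, n = 2 each). The groups did not overlap in any of these shares, with an exact permutation p of 0.333.

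Lists that had no part in defining the classes held them unequally. The anti-ARID1A lists of YTHDF1-knockout cells held 97.1% and 97.1% of the kept regions. They held 45.9% and 42.8% of the siARID1A-only regions and 59.4% and 60.0% of the WT-only regions, against 52.3% and 52.3% of all regions. Both of these lists held 43.3% of the WT-only regions, and neither held 23.8%. Of the siARID1A-only regions, neither held 35.9%. With anti-YTHDF1, the lists held 14.5 ± 0.173% of the WT-only regions in siARID1A cells and 13.7 ± 5.72% in WT cells, an exact permutation p of 1 (SD, n = 2 each). They held 19.2 ± 0.631% of the siARID1A-only regions in siARID1A cells and 13.7 ± 4.41% in WT cells (SD, n = 2 each; exact permutation p = 0.333). For kept regions the shares were 63.1 ± 0.872% in siARID1A cells and 56.3 ± 11.4% in WT cells (SD, n = 2 each; exact permutation p = 1). Over all regions, the anti-YTHDF1 lists held 22.2% and 22.6% in siARID1A cells and 23.8% and 15.7% in WT cells.

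**Figure D3:**
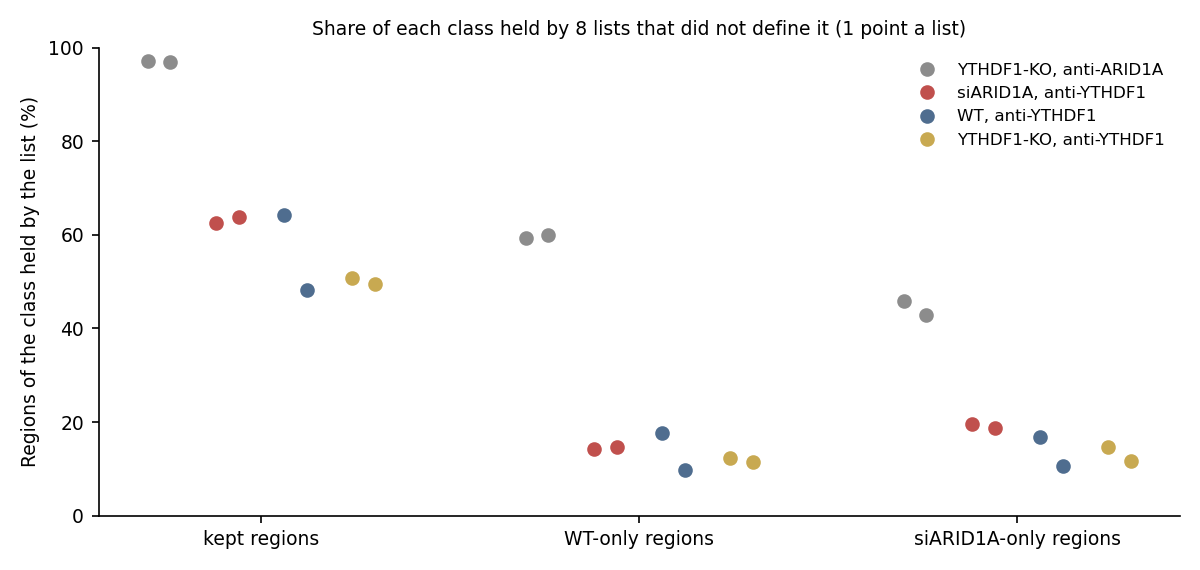
Share of kept, WT-only and siARID1A-only regions held by each of the 8 lists that did not define the classes (y axis, percent; 1 point a list), by cell group and antibody. The anti-ARID1A lists of YTHDF1-knockout cells hold 97.1% of kept regions and 59.4% and 60.0% of WT-only regions; all anti-YTHDF1 lists hold under 20% of the WT-only and siARID1A-only regions.

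Where ARID1A peaks were kept, they covered less of the region in siARID1A cells. Of the 25800 regions held by all 4 lists, 4157 (16.1%) were narrowed and 1 (0.00388%) was widened in limma's test with Benjamini-Hochberg adjustment at 0.05. At an unadjusted p under 0.05, 10351 were narrower and 15 wider. The median log2 difference in covered length, siARID1A minus WT, was -0.76 over all 25800 regions, and 94.1% of regions were below 0. Both siARID1A lists were below both WT lists in 18327 regions (71.0%) and above them in 251 (0.973%). These calls rest on 2 lists a group and on the overall shift. Without WT replicate 1 or without WT replicate 2, limma called 0 regions, although 6131 and 4498 were narrower at an unadjusted p under 0.05; without siARID1A replicate 2 it called 9923 narrowed. With each library centred on its own median, 32 regions were narrowed and 106 widened relative to that median, 93 of the 106 at gene starts.

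The narrowed share is given by WT covered length as a description, since that length is one side of the difference tested. Of regions with a mean WT covered length under 1 kb, 1.12% were narrowed, and 0.545% from 1 to 2 kb. The share was 7.67% from 2 to 4 kb, 24.4% from 4 to 8 kb, 36.5% from 8 to 16 kb and 52.6% from 16 kb up. The size of the difference did not follow the same order: the median log2 difference was -0.80 from 2 to 4 kb, -1.10 from 4 to 8 kb, -0.93 from 8 to 16 kb and -0.64 from 16 kb up. By place, 1502 of 10564 regions at gene starts were narrowed (14.2%, median log2 difference -0.65), 1517 of 8062 in gene bodies (18.8%, -0.89) and 1138 of 7174 between genes (15.9%, -0.80).

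**Figure D4:**
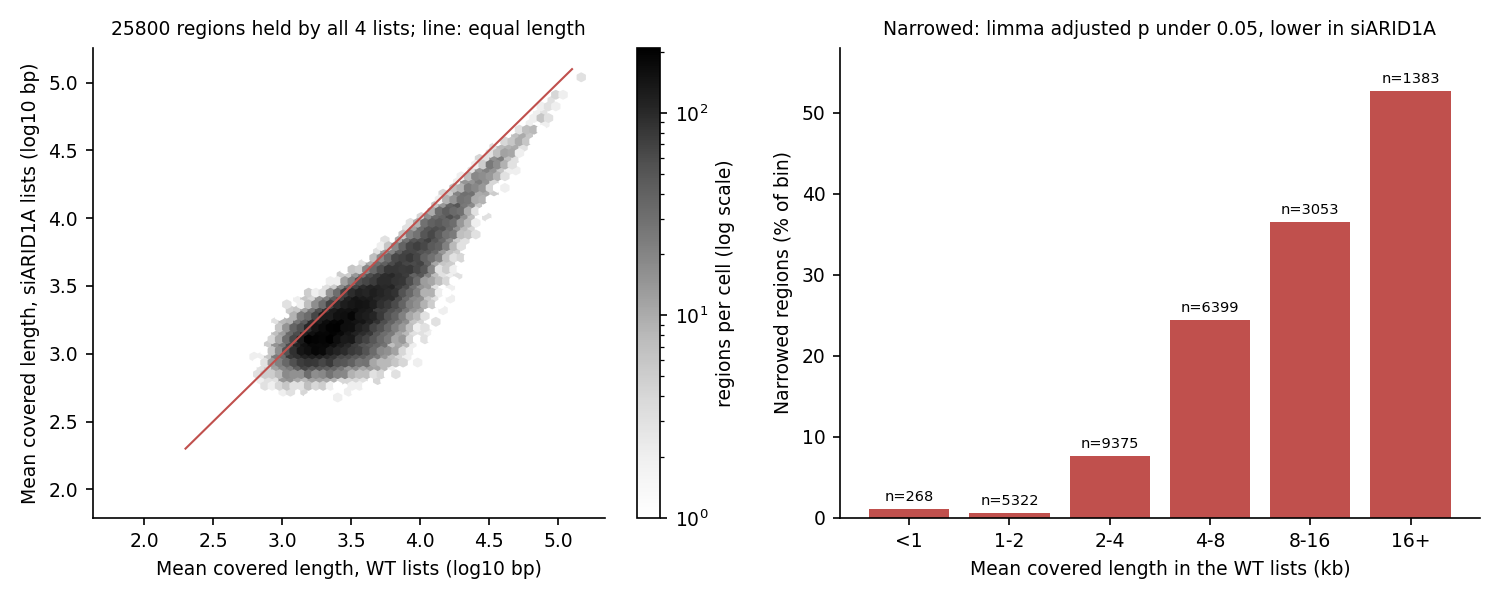
Left, mean covered length (log10 bp) in the siARID1A lists (y axis) against the WT lists (x axis) for the 25800 regions held by all 4 lists, with darker cells holding more regions and the red line marking equal length. Right, the percent of these regions called narrowed by mean WT covered length. Most regions lie below the line, and the narrowed share reaches 52.6% among regions of 16 kb and more.

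The narrowed regions were wide ARID1A domains in WT cells and short in siARID1A cells, the difference they were called on. Their median covered length was 1999 and 2258 bp in siARID1A cells, 5879 and 5567 bp in YTHDF1-knockout cells, and 6950 and 7475 bp in WT cells. In the kept regions that were not called, it was 1633 and 2006 bp in siARID1A cells and 2848 and 3139 bp in WT cells. Anti-YTHDF1 peaks within the narrowed regions covered a median of 1304 and 1524 bp in siARID1A cells and 1851 and 915 bp in WT cells, so the groups overlapped for that antibody. Over all kept regions, narrowed or not, cover was more broken up: the siARID1A lists placed 49324 and 48681 peaks in them, against 38804 and 35086 in the WT lists. In 1203 kept regions (4.66%) both siARID1A lists had several peaks where both WT lists had 1, and in 384 (1.49%) the reverse held. The narrowed share was below the 16.1% of all kept regions among the 1203, and above it among the 384. The 8 regions of largest narrowing had several peaks in at least 1 WT list. All of them but RRM2 had 1 peak in each siARID1A list. Narrowing and breaking up were thus different patterns, and their relation was not tested.

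The largest log2 difference lay on the long arm of chromosome 9 near OLFM1, which encodes the secreted neuronal glycoprotein olfactomedin 1. This intergenic region (chr9:135125626-135141121, build hg38) began 37.958 kb from the nearest start of that gene. Peaks covered 714 and 910 bp of it in siARID1A cells, 2753 and 4102 bp in YTHDF1-knockout cells, and 14422 and 14316 bp in WT cells. Both siARID1A lists were below all the others. The log2 difference, siARID1A minus WT, was -4.16 with a standard error of 0.348 (limma adjusted p = 0.0249).

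The next was also on chromosome 9, 31.108 kb from the start of FUBP3, which encodes a single-stranded DNA-binding protein (chr9:130532567-130548469). It had 759 and 738 bp covered in siARID1A cells, against 10334 and 15355 bp in WT cells, a log2 difference of -4.07 (standard error 0.379, limma adjusted p = 0.0249). At the start of TMEM37, a calcium channel subunit-like membrane protein (chr2:119425600-119436712), 758 and 919 bp were covered in siARID1A cells and 9341 and 9542 bp in WT cells. This was the only one of the 8 most narrowed regions at a gene start, and 1 of the YTHDF1-knockout lists had no peak there. Within TMOD3, which encodes an actin filament capping protein, 958 and 377 bp were covered in siARID1A cells, against 5850 and 7310 bp in WT cells.

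Upstream of SMAD3, a transcription factor of transforming growth factor beta signalling, an intergenic region 100.045 kb away (chr15:66952829-66965557) had 990 and 1013 bp covered in siARID1A cells and 12331 and 9598 bp in WT cells. Within RRM2, which encodes a subunit of ribonucleotide reductase, 912 and 2521 bp were covered in siARID1A cells and 14509 and 17614 bp in WT cells (chr2:10154142-10172992). The remaining regions were nearest to UACA (638 and 635 bp in siARID1A cells, against 7086 and 6503 bp in WT cells) and to CCDC34 (908 and 815 bp, against 8596 and 9632 bp). In all 8 regions the siARID1A lists were below the WT lists, by log2 differences between -4.16 and -3.40. After centring, the log2 differences ran from -3.26 to -2.50, and 7 of the 8 passed the test; TMOD3 did not (limma adjusted p = 0.0979). The YTHDF1-knockout lists lay between the siARID1A and WT lists in most of them; the lower TMEM37 value was 0 bp, and the higher UACA value of 7156 bp exceeded both WT lists.

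The single widened region lay between genes, 27.579 kb from the start of the gel-forming mucin gene MUC5AC (chr11:1126804-1130374). It had 3571 and 2757 bp covered in siARID1A cells and 1010 and 1069 bp in WT cells, a log2 difference of 1.59 (standard error 0.399, limma adjusted p = 0.0419). The YTHDF1-knockout lists covered 1853 and 745 bp there, on either side of the WT values. After centring, the log2 difference of this region was 2.49 and it did not pass the test (limma adjusted p = 0.0529). With lists cut to equal length, 0 regions were widened. The plot of covered length at these 9 regions gives each list.

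**Figure D5:**
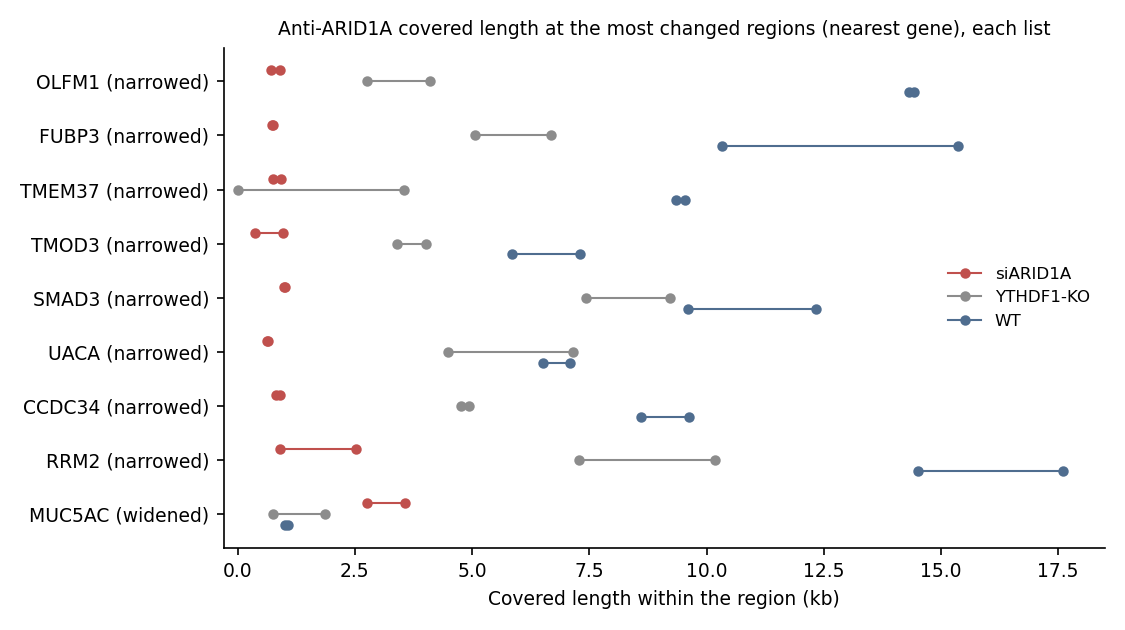
Length covered by anti-ARID1A peaks (x axis, kb) within the 8 regions of largest narrowing and the 1 widened region (rows, by nearest protein-coding gene), each list a point, siARID1A in red, YTHDF1-knockout in grey and WT in blue. The siARID1A points lie under 2.6 kb in all narrowed rows, and in the MUC5AC row they lie above the other groups.

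Among the 8 kept regions of highest percentile, the log2 difference in covered length ran from -0.54 to -0.01, against the median of -0.76 over all kept regions. At the ZFP36 locus an 84.84 kb region (chr19:39366190-39451029) that also spans PAF1, SUPT5H and RPS16, genes of transcription elongation and the ribosome, was covered over 66273 and 75404 bp in siARID1A cells and 78565 and 82863 bp in WT cells. The log2 difference was -0.19 with a standard error of 0.0787 (limma adjusted p = 0.117). The siARID1A lists split this cover into 21 and 14 peaks, against 5 and 5 in the WT lists. The 101.845 kb region over CIC (chr19:42237955-42339799) had 81627 and 81874 bp covered in siARID1A cells and 98937 and 99134 bp in WT cells. Its small log2 difference of -0.28 (standard error 0.0512) passed the test at a limma adjusted p of 0.0270. After centring, the CIC region instead passed as widened relative to the library median (log2 difference 0.62, limma adjusted p = 0.0312). So did the ZFP36 region (0.70, limma adjusted p = 0.0103), while the CEACAM16 region described next did not pass (0.36, limma adjusted p = 0.0529). A region over CEACAM16 and BCL3, an atypical member of the inhibitor of NF-kappa-B family, had 65666 and 72826 bp covered in siARID1A cells and 98734 and 101957 bp in WT cells, with a log2 difference of -0.54 (limma adjusted p = 0.0249).

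Other kept regions of highest rank span annotated repeat copies. The first-ranked region of all 4 lists, nearest to LOC102724250 (chr1:628618-635097), spans the annotated mitochondrial pseudogenes MTND1P23, MTND2P28, MTCO1P12 and MTCO3P12. It was covered over 5867 and 5861 bp in siARID1A cells and 5866 and 6480 bp in WT cells. A region nearest to LOC102723475 on chromosome 21 spans the ribosomal RNA unit RNA45SN2, with 32481 and 33624 bp in siARID1A cells and 33176 and 33484 bp in WT cells. Reads from near-identical copies can be split or piled up by alignment, so these regions are uncertain.

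Of the 8 WT-only regions of highest percentile, 6 lay within genes. The first, in TACC2, which encodes a centrosomal coiled-coil protein (chr10:122180111-122188352), lay 16.481 kb from a start of that gene. It had no peak in either siARID1A list, 2986 and 3738 bp covered in YTHDF1-knockout cells, and 5783 and 7994 bp in WT cells, at WT percentiles of 94.3 and 96.6. A region in TMC1, a channel gene of inner-ear hair cells, had no siARID1A peak and 8541 and 7640 bp covered in WT cells. One in MAPKAP1, which encodes a subunit of the mTORC2 kinase complex, had none in siARID1A cells and 4041 and 4574 bp in WT cells. PHLDB2, CYFIP2 and C10orf90 also held such a region, with 5553 and 5015 bp, 3093 and 2198 bp, and 4700 and 2850 bp covered in WT cells. Regions nearest to RABL2A, which has a near-identical copy, and to LMX1B, a homeobox gene, lay between genes. All 8 were covered in both YTHDF1-knockout lists.

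The 8 siARID1A-only regions of highest percentile were between 0.717 and 3.9 kb wide. One in MAPT, the gene of the microtubule-binding protein tau (chr17:45918588-45921298), had 1951 and 2711 bp covered in siARID1A cells, at percentiles of 71.9 and 77.4, and no peak in WT cells. One in URI1, which encodes a prefoldin-like chaperone, had 1738 and 1665 bp in siARID1A cells and none in WT cells (chr19:29948136-29949873). Within the sodium-dicarboxylate transporter gene SLC13A3, 1592 and 2153 bp were covered in siARID1A cells and none in WT cells. Another spanned the start of GOLGA6L7, a member of a multi-copy family, and is uncertain. The remaining 4 lay 187.434 to 1078.12 kb from the nearest protein-coding start, those of DEFB115, LOC124903767, CWC27 and ALG10B. At least 1 YTHDF1-knockout list covered each of the 8 regions, so none was seen in siARID1A cells alone among the anti-ARID1A lists.

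Losses were uneven along the genome. WT-only regions made up 19.2% of the regions held by both WT lists on chromosome 17 and 40.8% on chromosome 9, the lowest and the highest shares. Beyond 80 Mb on chromosome 9, where the OLFM1, FUBP3, MAPKAP1, LMX1B and FIBCD1 regions lie, the share was 43.9% of 1942 regions, and 39.2% of 622 kept regions were narrowed, with a median log2 difference of -1.22. Beyond 40 Mb on chromosome 17, 14.6% of 1974 regions were WT-only and 7.18% of 1239 kept regions were narrowed, with a median log2 difference of -0.50. The YTHDF1-knockout anti-ARID1A lists also differed there: neither held 17.4% of the WT regions on distal chromosome 9 and 2.03% on distal chromosome 17, against 9.32% over all chromosomes. Without chromosomes 2, 9 and 17 the ratio of peak number was 0.778.

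At gene starts, the ARID1A peak was mostly kept. Of 19974 protein-coding genes, 11218 had a peak of all 4 lists within 1 kb of a start, 745 were WT-only and 64 siARID1A-only. For the 4162 genes without a listed start, windows at both annotated ends were used instead. The WT-only genes were 5.45% of the 13667 held by both WT lists, and the siARID1A-only genes 1.39% of the 4591 held by neither WT list. Only 437 of the 745 lay in a WT-only region. A further 100 lay in a kept region whose siARID1A peaks stopped short of the start, and 208 in a mixed region. With a window of 3 kb, 639 genes were WT-only and 75 siARID1A-only, and 447 of the 745 and 46 of the 64 kept their class. The counts depended on each library: 1329 and 1865 genes were WT-only without siARID1A replicate 1 and 2, and 1291 and 1082 without WT replicate 1 and 2. The siARID1A-only genes numbered 300, 252, 160 and 216 in the same order.

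The 8 WT-only genes of highest percentile all lay in a kept region of this kind. At FIBCD1, whose promoter is printed above, peaks reached percentiles of 99.5 and 99.8 in WT cells. Its region (chr9:130912658-130951621) was covered over 14277 and 16534 bp in siARID1A cells and 34037 and 38462 bp in WT cells, and was narrowed. PNPLA5 lay in a narrowed region with 6042 and 15340 bp in siARID1A cells and 28398 and 33900 bp in WT cells. MUC3A, a membrane mucin with a near-identical neighbour copy, lay in one with 11628 and 13811 bp in siARID1A cells and 22111 and 19887 bp in WT cells. TSR3, an enzyme that modifies 18S ribosomal RNA, had WT percentiles of 99.6 and 99.6, but its region was not called narrowed (16380 and 19214 bp in siARID1A cells, against 21818 and 21442 bp in WT cells). PFKFB2, GARRE1 and CBFA2T3 completed this group, PFKFB2 and GARRE1 by a window at an annotated gene end for want of a listed start, and all 7 genes were kept when the window was 3 kb. LAMC3, a laminin gamma chain gene on chromosome 9, also had a window at an annotated end and was mixed at 3 kb.

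The siARID1A-only starts held shorter peaks. ZNF800 had percentiles of 71.3 and 61.5 in siARID1A cells over 1452 and 1204 bp, and no peak in WT cells. ITGA4 had percentiles of 72.7 and 54.9 over 1358 and 1105 bp, with no peak in the WT or the YTHDF1-knockout anti-ARID1A lists. ADAMTS19, a secreted metalloprotease gene, had 992 and 2051 bp in siARID1A cells and none in WT cells. SNRK, a kinase gene of the AMPK family, had 879 and 1161 bp in siARID1A cells and none in WT cells, and TXNDC5, an endoplasmic reticulum disulfide isomerase gene, had 808 and 1389 bp and none. These 5 kept their class with a 3 kb window. COLGALT2 became mixed with that window, GOLGA6L7 kept its class, and TAF11L8, of a repeated gene cluster, became kept.

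The locus of ARID1A itself was held in both groups. The region over its start (chr1:26692209-26696398) was covered over 2805 and 2622 bp in siARID1A cells and 3839 and 3539 bp in WT cells. The log2 difference was -0.44 with a standard error of 0.346, and it did not pass the test (limma adjusted p = 0.347). Within the gene, a region of 2696 bp was WT-only, with no peak in siARID1A cells and 2673 and 2416 bp covered in WT cells. Peaks on the gene do not measure its expression, and the RNA or protein level after knockdown was not analysed here. The region over the start of YTHDF1 (chr20:63214528-63254235) was covered over 26633 and 30882 bp in siARID1A cells and 33848 and 36738 bp in WT cells, a log2 difference of -0.30 (standard error 0.123, limma adjusted p = 0.117).

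Of 25 genes of SWI/SNF subunits held by both WT lists, 0 were WT-only and 22 were kept. Over all genes held by both WT lists, 5.45% were WT-only and 82.1% kept, so these counts are near the background. SMARCA4, the BRG1 ATPase, had percentiles of 76.5 and 61.5 in siARID1A cells and 67.5 and 89.9 in WT cells. SMARCC1, a core scaffold subunit, had 80.1 and 75.5 in siARID1A cells and 85.0 and 88.6 in WT cells. SMARCB1, another core subunit, was mixed, with a peak in 1 siARID1A list and both WT lists. Among AP-1 and ATF family genes, 1 of 20 was WT-only, the bZIP factor MAF, with WT percentiles of 51.7 and 60.1. FOS had percentiles of 98.0 and 98.7 in siARID1A cells and 95.9 and 93.8 in WT cells, and JUN 89.8 and 93.3 in siARID1A cells and 81.9 and 85.6 in WT cells.

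Stress and growth genes of A549 cells were mostly kept at their starts, as were 82.1% of all genes held by both WT lists. The WT-only count was 0 of 26 for NRF2 targets, the antioxidant genes that this line expresses strongly, 0 of 21 for p53 targets, 0 of 23 for DNA damage response genes and 0 of 25 for YAP and TEAD pathway genes. All 26, 21 and 23 of the first 3 lists and 24 of the 25 YAP and TEAD genes were kept. HMOX1, the haem-degrading NRF2 target, had percentiles of 98.6 and 98.1 in siARID1A cells and 99.4 and 98.9 in WT cells. CDKN1A, the p53-induced cell cycle inhibitor, had 94.8 and 95.8 in siARID1A cells and 95.5 and 97.2 in WT cells. Ribosomal protein genes lost 1 of 81, RPL7A on distal chromosome 9, replication licensing and cyclin genes 1 of 30 (ORC5), and N6-methyladenosine genes 1 of 21 (ZC3H13). Replication-dependent histone genes lost 2 of 40 (H2BC9 and H3C12) and R-loop resolution genes 2 of 25 (RNASEH2B and THOC2). H3C12 lay in a kept region with 1234 and 2192 bp covered in siARID1A cells and 6125 and 2986 bp in WT cells. H2BC9, THOC2 and RPL7A lay in mixed regions, each with cover in 1 siARID1A list, and H2BC9, H3C12 and THOC2 were mixed with a 3 kb window. These shares lie near or below the 5.45% over all genes, apart from 8% for R-loop resolution, which is 2 genes.

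Immune gene lists had WT-only counts of 0 or 1, too few to set apart from the 5.45% over all genes. The WT-only count was 0 of 7 for MHC class I antigen presentation, 0 of 18 for nucleic acid sensing and 0 of 18 for cytokines and chemokines. It was 1 of 15 for interferon-stimulated genes, the interferon signalling factor IRF9, and 1 of 9 for immune checkpoint ligands, CD80. Kept were 7 of 7, 12 of 18, 12 of 18, 12 of 15 and 7 of 9 in the same order. Over all genes held by both WT lists 82.1% were kept, and the differences were not tested. IRF9 lay in a WT-only region with 2975 and 5339 bp covered in WT cells, at percentiles of 67.0 and 79.2, and it was also held by both YTHDF1-knockout lists.

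Keratin genes were the list with the largest WT-only share. Of the 25 keratin genes held by both WT lists, 7 were WT-only (28.0%) and 14 were kept, against 5.45% and 82.1% over all genes held by both WT lists; the difference was not tested. KRT4, KRT5, KRT6A, KRT6B, KRT76 and KRT79 lie in the same type II keratin cluster on chromosome 12, so they are not independent, and KRT38 lies in the type I cluster on chromosome 17. KRT5, the keratin of basal epithelial cells, lay in a WT-only region (chr12:52518792-52524037) with 2745 and 5246 bp covered in WT cells. KRT6A had percentiles of 90.8 and 91.9 in WT cells, and its region had 0 and 1272 bp covered in siARID1A cells, against 5610 and 5180 bp in WT cells. KRT79 had 0 and 1339 bp in siARID1A cells and 8426 and 8523 bp in WT cells. With a 3 kb window KRT4, KRT5, KRT38 and KRT76 stayed WT-only and KRT6A, KRT6B and KRT79 became mixed. KRT6A and KRT6B are near-identical copies, so their peaks are uncertain. In the same cluster KRT8, the simple-epithelial keratin that A549 cells express, had percentiles of 99.4 and 99.3 in siARID1A cells and 99.7 and 99.9 in WT cells, and KRT18 had 98.7 and 99.3 in siARID1A cells and 99.0 and 99.5 in WT cells.

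Epithelial and A549 markers had a peak at 11 and 11 of 12 starts in the siARID1A lists, against 11 and 12 in the WT lists. Markers of other cell types were held too: the siARID1A lists held 10 and 10 of 20 haematopoietic markers, against 13 and 14 in the WT lists, and 9 and 13 of 18 neuronal markers, against 12 and 13. Of 13 haematopoietic marker genes held by both WT lists, 3 were WT-only (23.1%, against 5.45% over all genes): CD3E, GATA1 and RUNX3. Their WT percentiles ran from 9.82 for CD3E to 64.4 for RUNX3, which was kept with the 3 kb window. Neuronal markers lost 1 of 12 (SLC32A1, also kept with 3 kb), olfactory receptors 1 of 9, lung and endoderm lineage genes 1 of 24 (the surfactant gene SFTPA1), genes of the epithelial-mesenchymal transition 1 of 21 (TWIST2) and HOX genes 1 of 25 (HOXD13). Epithelial and A549 markers lost 0 of 11. WT-only counts of 0 or 1 in lists of this size are not set apart from the background. Kept were 10 of 13 haematopoietic, 9 of 12 neuronal, 5 of 9 olfactory receptor and 20 of 24 lung and endoderm genes. For transition, epithelial and HOX genes the kept counts were 19 of 21, 10 of 11 and 14 of 25. Over all genes held by both WT lists 82.1% were kept, and the differences were not tested. The HOX genes held by both WT lists that were neither kept nor WT-only had a peak in 1 siARID1A list. CDKN2A, which A549 cells are known to lack, had no peak in any list. Among all these lists the only siARID1A-only gene was HOXD1, with percentiles of 44.5 and 54.9 in siARID1A cells over 839 and 1474 bp.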

How the data were processed

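CUT&Tag peak lists of A549 cells were used as deposited. Tools named by the submitters' processing notes are SEACR 1.3, Bowtie2 2.4.2, fastp 0.23.2, deepTools 3.5.2, SAMtools 1.9 and bedtools 2.30.0, with builds hg38 and GRCh38. Not given in the sources used here were SEACR settings, library depth and the role of IgG. Deposited lists give the total signal and the highest signal of each peak, on a scale that differed among libraries; signal was converted to whole steps per library (100% of values whole within 0.01 step). Peaks outside chromosomes 1 to 22 and X, 3.57% to 4.06% of each list, entered no region.

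Regions, classes and places were built as described in the report, with minimum overlap 1 bp and 1 kb windows around gene starts from RefSeq promoters (GRCh38.p14; 15812 of 19974 genes, the other 4162 with both annotated ends). Distances are to these positions. Covered length was tested with limma 3.58.1 (R 4.3.3, trended eBayes on log2 bp, Benjamini-Hochberg over 25800 regions, threshold 0.05), single values with a two-sided exact permutation test in scipy 1.17.1. The limma test was tried on simulated data. It recovered 8 of 100 regions changed by a log2 of 1, 34 of 50 changed by 2 and 50 of 50 changed by 3, with 6 false calls. Few regions were changed in the simulation, whereas most were lower in the data, so these shares do not carry over directly. Regions not called may still have changed. Named are the 8 regions of highest mean percentile per class, the 8 of largest change each way (1 widened), at most 15 list genes and the 8 strongest genes each way, ARID1A and YTHDF1; other genes named beside a list were chosen after their values were seen. The members and gene lists were chosen with earlier results of these data known. Alternatives were list length, threshold, overlap, merging, chromosomes, centring, window and libraries left out.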

Additional observations from a re-analysis of the deposited data

Results flagged for a closer look

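The ratio of siARID1A to WT covered length was 0.458 with anti-ARID1A and 1.15 with anti-YTHDF1. The groups overlapped with anti-YTHDF1, so the ratio of 1.15 sets no direction. Both siARID1A lists lay below the WT mean with anti-ARID1A and above it with anti-YTHDF1, although the siARID1A values with anti-YTHDF1 (77.5 and 81.7 Mb) lay within the WT range (89.6 and 49.3 Mb). The difference between the antibodies was not tested.

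Signal on chromosome MT lies outside the regions compared. It made up 47.2% of the listed signal on average in the siARID1A anti-ARID1A lists, against 22.6% and 23.03% in the YTHDF1-knockout and 18.7% on average in the WT anti-ARID1A lists. Its part in the narrower nuclear peaks was not tested.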

How the results depend on the processing

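Of 74 recomputed values, 41 stayed within the limit set for a change and 33 moved. The ratios of peak number (0.738 to 0.820 with a library left out), covered length (0.401 to 0.516) and median width (0.639 to 0.720) stayed below 1 throughout. With each list cut to the 71271 strongest peaks, 9297 regions were WT-only, 138 genes were siARID1A-only and 0 regions were widened. With the strongest 50% of each list by signal, 15958 regions were kept, 8563 WT-only and 387 siARID1A-only. When peaks had to cover 50% of a region, 6418 were kept and 26522 WT-only. Centring each library on its median turned the balance of calls, to 32 narrowed and 106 widened regions, and the median log2 difference to 0.14, against -0.76 without it. With a library left out, WT-only regions ran from 21397 to 45429, siARID1A-only regions from 1695 to 12662, narrowed regions from 0 to 9923, widened regions from 0 to 2, WT-only genes from 1082 to 1865 and siARID1A-only genes from 160 to 300. The loss of all calls without either WT list came with 1 residual degree of freedom; the lone WT list was then assumed to vary like the siARID1A lists.

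Whether the replicate numbers pair the libraries is not known. Over the 25800 kept regions the differences between replicates 1 and 2 correlated at 0.016 between the groups. A correlation over regions cannot show a shift shared by whole libraries. Replicate 2 had more peaks than replicate 1 in both groups (79193 and 71271 in siARID1A cells, 100729 and 92343 in WT cells). With the replicate block, 7447 regions were narrowed and 7 widened, and the ratios of peak number and covered length were 0.779 and 0.457. With 2 lists a group no exact test can go below 0.333, and peaks under the authors' threshold are not listed, so a missing peak is not the absence of ARID1A.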
